A study of Homo sapiens with 4 samples.

Results

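MYCN and 5 genes that lie near it on the short arm of chromosome 2 were followed across a knockdown of TTC8 in neuroblastoma cells. The members were the rows of the deposited count table whose Ensembl identifiers map to MYCN, MYCNOS, DDX1, NBAS, CYRIA (formerly FAM49A) and TRIB2, 6 of the 64252 genes listed. All 6 passed the low-count filter that left 19610 genes for testing. RNA was sequenced from 4 libraries of SK-N-BE(2), an established human neuroblastoma line that carries extra copies of MYCN. The control libraries (shScb, 2 libraries) came from cells transfected with a scramble short hairpin RNA, and the knockdown libraries (shTTC8, 2 libraries) from cells transfected with a hairpin against TTC8. All 4 libraries therefore share the line and its amplified locus, and neither culture dates nor a time after transfection is given. No label says whether replicates came from separate cultures, so p-values measure the spread between these libraries, which may be technical. Everything rests on 1 cell line, and how many hairpins were used is not stated. The question was whether the neighbours' RNA moved with that of MYCN.

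MYCN encodes a transcription factor of the MYC family that dimerises with MAX, binds E-box DNA and drives growth and proliferation. Extra copies of MYCN mark high-risk neuroblastoma, and the copied segment, the amplicon, often takes adjoining genes with it. DDX1 and NBAS are the protein-coding genes most often named as passengers, and MYCNOS is transcribed from the strand opposite to MYCN and overlaps its 5′ end. DNA copy number was not measured here, so which of the 6 genes lie on the amplicon of these cells cannot be told from the counts. In bulk RNA, fewer cells that express a gene and less RNA per cell cannot be told apart.

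The libraries held 38284663 to 55331449 counts, with 27445 to 28374 genes detected in each. TTC8 served as the check of the labels. Its counts were 9888 and 10398 in shScb against 1130 and 1268 in shTTC8, a change of -2.70 on the log2 scale (SE 0.07, adjusted p = 5.38e-12 by edgeR). Over all tested genes, 16.7% were called lower and 15.2% higher. The 9 adrenergic neuroblastoma markers were all tested, and 6 were lower and 2 higher. Their summed level was 4199 and 4483 CPM (counts scaled to library size) in shScb and 4488 and 4550 CPM in shTTC8. CHGB alone went from 543 and 566 CPM in shScb to 1472 and 1485 CPM in shTTC8. Without it the other 8 summed to 3656 and 3917 CPM in shScb and 3017 and 3065 CPM in shTTC8. Markers of fibroblasts summed to 494 and 475 CPM in shScb and 236 and 226 CPM in shTTC8, with all 6 tested members lower. Blood markers summed to 15.6 to 16.0 CPM in shScb and 3.33 to 4.15 CPM in shTTC8, with CD3E and HBB at 0 in every library. Most of this sum was PTPRC, called lower, with means of 15.4 CPM in shScb and 3.27 CPM in shTTC8 (log2 fold change -2.23). CD68, the other tested member, had higher means in shTTC8 (0.427 CPM) than in shScb (0.282 CPM) and was not called (0.58). Endothelial markers summed to 1.66 and 1.18 CPM in shScb and 0.309 and 0.266 CPM in shTTC8, with VWF, the 1 tested member, lower and PECAM1 and TEK at 0. The fibroblast, blood, endothelial and epithelial sums moved in the same direction as MYCN, the blood sum through PTPRC and not CD68. The adrenergic sum did so only without CHGB, the marker with the largest rise, and the full sum did not fall. The part of these sums in the results was not tested. Schwann cell markers ranged from 4.54 to 6.15 CPM with SOX10 at 0. Epithelial markers summed to 8.41 and 8.26 CPM in shScb and 6.80 and 7.59 CPM in shTTC8, with CDH1 at 0. Of the 4 tested, KRT19 was called lower (log2 fold change -1.59) and 3 were not called. Among those not called, KRT8 had a higher mean in shTTC8 (0.71).

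The promoter letters are shown for MYCN and MYCNOS, whose RNAs fell, and for NBAS, the member whose RNA rose, so that the start regions of the divergent members can be compared. Each is the 250 bases before the RefSeq start (GRCh38.p14), written 5′ to 3′ on the strand of the gene, with capitals marking matches to the motifs searched on both strands.
MYCN, chr2:15940300-15940549, plus strand: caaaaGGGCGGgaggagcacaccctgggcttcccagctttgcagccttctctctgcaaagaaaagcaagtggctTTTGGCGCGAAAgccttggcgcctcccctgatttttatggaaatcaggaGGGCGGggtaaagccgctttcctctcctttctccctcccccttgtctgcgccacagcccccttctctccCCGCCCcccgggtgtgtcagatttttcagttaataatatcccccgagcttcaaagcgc
MYCNOS, chr2:15941686-15941935, minus strand: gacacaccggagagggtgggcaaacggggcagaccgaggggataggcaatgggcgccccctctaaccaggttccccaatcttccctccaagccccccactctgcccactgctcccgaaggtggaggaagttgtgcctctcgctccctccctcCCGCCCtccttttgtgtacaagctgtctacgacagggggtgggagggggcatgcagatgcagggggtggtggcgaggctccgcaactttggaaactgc
NBAS, chr2:15561335-15561584, minus strand: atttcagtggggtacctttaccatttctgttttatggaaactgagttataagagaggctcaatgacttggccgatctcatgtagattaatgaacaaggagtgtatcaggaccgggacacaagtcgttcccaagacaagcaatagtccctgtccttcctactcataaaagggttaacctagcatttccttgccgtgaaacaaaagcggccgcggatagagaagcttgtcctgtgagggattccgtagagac
The motifs were the E-box CACGTG, which MYC and MAX proteins bind, the E2F-type TTTNNCGC and the GC box GGGCGG, which SP1 binds. The MYCN window held 3 GC boxes and 2 E2F-type matches, 1 on each strand, which overlap each other, and no E-box. The MYCNOS window printed held 1 GC box and the NBAS window none of the 3 motifs. Over all 34788 promoter windows of that length, 42.6% held the GC box, 5.89% the E2F-type motif and 6.31% the E-box. G and C made up 57.2% of the MYCN window, 64.0% of the MYCNOS window and 45.6% of the NBAS window, against a mean of 57.2% over all windows. The MYCN window lies within the span of MYCNOS, and 52 of its bases fall in annotated exons. The MYCNOS window lies inside the MYCN gene, with 38 bases in annotated exons and none in an annotated untranslated region. The windows of DDX1 and TRIB2 run into annotated untranslated regions and are not printed. RefSeq gives MYCNOS a second start, whose window (79.6% G and C, 2 GC boxes) lies within annotated MYCN exons and is not printed. The TRIB2 window held 6 GC boxes and no other match, and the DDX1 window held none of the motifs. A match describes letters only, and binding was not measured.

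MYCN was among the most abundant RNAs in these cells and was lower after the knockdown. MYCN (ENSG00000134323, chr2:15940564-15947007, plus strand, GRCh38) had 286137 and 316079 counts in shScb against 144213 and 158103 in shTTC8. Scaled to library size, its levels were 5661 and 5815 CPM in shScb and 3713 and 3820 CPM in shTTC8, so that both knockdown libraries lay below both controls. The means were 5738 ± 109 and 3766 ± 75.4 CPM (SD, n = 2 each). MYCN RNA fell by 34.4% (95% interval of the change -40.1% to -28.1%), a log2 fold change of -0.61 (SE 0.06; adjusted p by edgeR = 3.49e-06). Per kilobase of exon, MYCN ranked 18 in both shScb libraries among all tested genes, and 23 and 22 in the shTTC8 libraries. It therefore stayed near the top of the list at the lower level.

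MYCNOS, the antisense RNA of MYCN, was also lower, by a smaller margin. MYCNOS (ENSG00000233718, chr2:15921037-15942249, minus strand) had 7277 and 8887 counts in shScb and 4398 and 4848 in shTTC8. Its levels were 144 and 164 CPM in shScb and 113 and 117 CPM in shTTC8, with the control libraries farther apart than the knockdown ones. MYCNOS fell by 25.1%, a log2 fold change of -0.42 (SE 0.07, 95% interval -0.56 to -0.27, edgeR adjusted p = 2.86e-04). The exons of MYCNOS and MYCN share 98 bases on opposite strands, 4.06% of the MYCNOS exons and 3.77% of those of MYCN. The library kit does not mark the strand, so reads in that stretch cannot be assigned to either gene. MYCNOS counts were 2.54% and 2.81% of the MYCN counts in shScb and 3.05% and 3.07% in shTTC8. Were MYCN counts spread evenly over its exons, those 98 bases alone would carry 10777 and 11905 counts in shScb and 5432 and 5955 in shTTC8, more than all MYCNOS counts in the same libraries. The part of MYCN reads in the MYCNOS values was not tested. MYCNUT, an RNA annotated upstream of MYCN, had 0 counts in all 4 libraries.

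The protein-coding members on the side of the short arm's tip did not share the size of the MYCN change, and NBAS went the other way. DDX1 encodes an RNA helicase of the tRNA ligase complex, and NBAS a protein of the tether that receives Golgi-derived vesicles at the endoplasmic reticulum, which also takes part in nonsense-mediated decay. DDX1 (ENSG00000079785, chr2:15591178-15631111, plus strand) had 14828 and 15554 counts in shScb and 10224 and 10663 in shTTC8. Its levels were 293 and 286 CPM in shScb and 263 and 258 CPM in shTTC8, a narrow gap with no overlap between the groups. The log2 fold change was -0.15 (SE 0.06, 95% interval -0.28 to -0.03), and it missed the threshold (edgeR adjusted p = 0.0568). DDX1 lies close to that threshold, which it passed without shScb replicate 2 (-0.17, edgeR adjusted p = 0.0205). NBAS (ENSG00000151779, chr2:15166909-15561330, minus strand) had 5817 and 5883 counts in shScb and 4861 and 5285 in shTTC8. Its levels were 115 and 108 CPM in shScb and 125 and 128 CPM in shTTC8, so both knockdown libraries lay above both controls. NBAS rose by 13.2%, a log2 fold change of 0.18 (SE 0.06, 95% interval 0.05 to 0.31, edgeR adjusted p = 0.0355). That call did not hold without shScb replicate 2 (0.14, edgeR adjusted p = 0.0924), without shTTC8 replicate 1 (0.19, adjusted p = 0.167), without shTTC8 replicate 2 (0.17, adjusted p = 0.228) and with the replicate number as a block (0.18, adjusted p = 0.0613).

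TRIB2, the most distant member, fell slightly. TRIB2 encodes a pseudokinase that steers substrates such as C/EBP proteins to the ubiquitin ligase COP1. TRIB2 (ENSG00000071575, chr2:12716889-12742734, plus strand) had 7134 and 7470 counts in shScb and 4736 and 5099 in shTTC8. Its levels were 141 and 137 CPM in shScb and 122 and 123 CPM in shTTC8, with no overlap. TRIB2 fell by 12.0%, a log2 fold change of -0.18 (SE 0.06, 95% interval -0.31 to -0.06, edgeR adjusted p = 0.0258). Its call did not hold without shTTC8 replicate 1 (-0.18, edgeR adjusted p = 0.203), without shTTC8 replicate 2 (-0.19, adjusted p = 0.167) and with the replicate block (-0.18, adjusted p = 0.0535).

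CYRIA, on the other side of MYCN, was barely expressed, and its change could not be resolved. CYRIA encodes a protein that binds RAC1 and restrains actin branching. CYRIA (ENSG00000197872, chr2:16549459-16666331, minus strand) had 107 and 85 counts in shScb and 45 and 54 in shTTC8. Its levels were 2.12 and 1.56 CPM in shScb and 1.16 and 1.30 CPM in shTTC8. The log2 fold change of -0.58 was close to that of MYCN, but its 95% interval ran from -1.20 to 0.04 (SE 0.29, edgeR adjusted p = 0.152). At this depth CYRIA could therefore be told apart neither from no change nor from the change of MYCN.

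**Figure D1:**
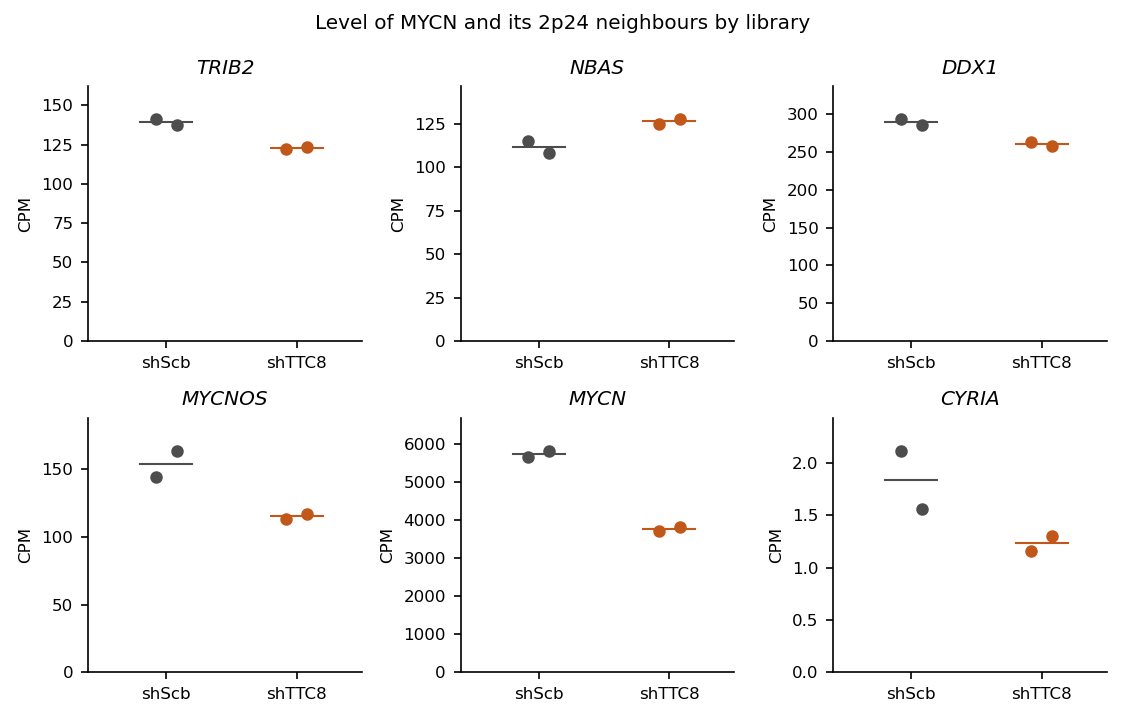
Level of each member in CPM (linear axes from 0, a scale of its own per gene), with 1 point per library and a line at the mean of the 2 libraries of each group. MYCN is at 5661 and 5815 CPM in shScb and at 3713 and 3820 CPM in shTTC8, and NBAS is the member whose shTTC8 points lie above its shScb points.

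Of the 6 members, 3 were called lower (MYCN, MYCNOS and TRIB2), 1 higher (NBAS) and 2 not called (DDX1 and CYRIA). These stand beside 16.7% lower and 15.2% higher over all tested genes. The 2 groups' libraries did not overlap in any of the 6 members, and the same held for 65.5% of all tested genes. With so small a set the counts describe these genes and say nothing of the set as such.

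Levels per kilobase of exon put the members in 1 order in both groups. MYCN stood at 2205 ± 42.0 CPM per kilobase in shScb (SD, n = 2), 29.2-fold above DDX1 at 75.6 ± 1.32. MYCNOS followed at 63.7 ± 5.73, TRIB2 at 30.4 ± 0.570, NBAS at 12.5 ± 0.541 and CYRIA at 0.338 ± 0.0718 CPM per kilobase. In shTTC8 MYCN stood at 1447 ± 28.97 CPM per kilobase, 21.3-fold above DDX1 at 67.9 ± 1.04. MYCNOS was then at 47.7 ± 1.14, TRIB2 at 26.7 ± 0.193, NBAS at 14.1 ± 0.200 and CYRIA at 0.226 ± 0.0189 CPM per kilobase. Neighbours in that order did not overlap between libraries in either group. DDX1 and MYCNOS were the closest pair in shScb, with DDX1 1.19-fold higher.

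Whether a neighbour moved differently from MYCN was tested on the ratio of its count to the MYCN count of the same library, which does not depend on library scaling. For every 1000 MYCN counts, DDX1 had 51.8 and 49.2 counts in shScb and 70.9 and 67.4 in shTTC8. Relative to MYCN it was 1.37-fold higher after the knockdown (log2 difference 0.45, SE 0.06, 95% interval 0.32 to 0.59, limma adjusted p = 9.93e-06). NBAS had 20.3 and 18.6 counts per 1000 MYCN counts in shScb and 33.7 and 33.4 in shTTC8. Its ratio rose 1.73-fold, the largest shift among the 5 neighbours (log2 difference 0.79, SE 0.07, 95% interval 0.64 to 0.94, limma adjusted p = 1.24e-07). TRIB2 had 24.9 and 23.6 counts per 1000 MYCN counts in shScb and 32.8 and 32.3 in shTTC8. Its ratio rose 1.34-fold (log2 difference 0.42, SE 0.07, 95% interval 0.28 to 0.57, limma adjusted p = 4.48e-05). These 3 genes did not follow MYCN in size: their shTTC8 ratios lay well above both controls.

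The MYCNOS ratio moved less. MYCN reads from the shared exonic bases may be part of the MYCNOS counts, and their effect on this ratio was not tested. MYCNOS had 25.4 and 28.1 counts per 1000 MYCN counts in shScb and 30.5 and 30.7 in shTTC8 (log2 difference 0.19, SE 0.07, 95% interval 0.04 to 0.34, limma adjusted p = 0.0246). That call did not hold without shScb replicate 1 (0.12, limma adjusted p = 0.164), without shTTC8 replicate 1 (0.20, adjusted p = 0.108) and without shTTC8 replicate 2 (0.19, adjusted p = 0.120). CYRIA had 0.374 and 0.269 counts per 1000 MYCN counts in shScb and 0.312 and 0.342 in shTTC8, which overlap. Its ratio differed by 0.05 on the log2 scale (SE 0.29, 95% interval -0.56 to 0.66, limma adjusted p = 0.887). This interval is wide and does not show that CYRIA moved with MYCN. Its estimate changed sign when shScb replicate 2 (-0.19) or shTTC8 replicate 2 (-0.01) was left out.

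Of the 5 neighbours, 4 were thus called higher relative to MYCN and 1 was not called. This count must be read against the whole table, where 65% of genes were called higher relative to MYCN and 2.71% lower. The median gene moved by 0.61 relative to MYCN on the log2 scale, since the median log2 fold change of all tested genes was 0.00. DDX1 and TRIB2, at 0.45 and 0.42, lay below that median, and NBAS, at 0.79, above it. All ratios share the same 4 MYCN values.

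**Figure D2:**
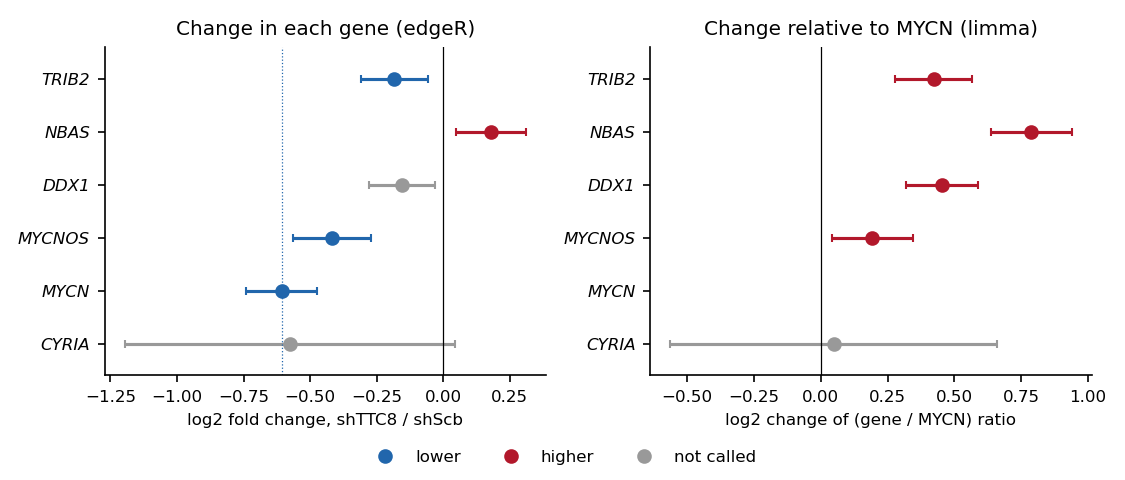
Log2 fold change of each member (left, edgeR) and log2 change of its ratio to MYCN (right, limma), shTTC8 over shScb, with points at the estimate, bars for the 95% interval and colours for the call. The dotted line marks the MYCN change of -0.61, and the CYRIA bar spans from -1.20 to 0.04.

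The wider 2p neighbourhood showed changes in both directions. Within 5 Mb of the MYCN start, measured between the lower coordinates of the genes, 128 genes were listed and 39 tested. Of these, 12 were called lower and 5 higher, with a median log2 fold change of -0.10, against 16.7% lower and 15.2% higher over all tested genes. Without the members the counts were 9 lower and 4 higher of 33. The window held 7 lower genes without shTTC8 replicate 1 and 2 higher genes without shTTC8 replicate 2. Among the 26 protein-coding genes of the window 7 were lower and 5 higher, and among the 13 others 5 were lower and none higher.

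By the smallest p in that window, VSNL1, LPIN1, LAPTM4A and GREB1 stood beside MYCN. VSNL1, a neuronal calcium sensor gene 1.60 Mb from MYCN, rose from 16.1 ± 0.278 to 49.4 ± 1.02 CPM (log2 fold change 1.61, edgeR adjusted p = 6.65e-09). LAPTM4A, a lysosomal membrane protein gene 4.09 Mb away on the same side, rose from 239 ± 5.28 to 363 ± 3.70 CPM (0.60, adjusted p = 2.38e-06 by edgeR). On the other side, LPIN1, a phosphatidate phosphatase gene, fell from 134 ± 3.83 to 86.0 ± 0.434 CPM (-0.64, edgeR adjusted p = 1.56e-06). GREB1, known as an oestrogen-induced gene, fell from 107 ± 4.01 to 72.6 ± 5.68 CPM (-0.56, edgeR adjusted p = 2.20e-05). Distances of LPIN1 and GREB1 from MYCN were -4.26 and -4.46 Mb, farther than any member. Their ratios to MYCN were not called (log2 differences -0.03 and 0.04, limma adjusted p = 0.684 and 0.670).

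Between the end of MYCN and the start of CYRIA, 7 genes were tested, all of them long non-coding RNAs or pseudogenes. This interval was singled out after its values were seen. In it 4 genes were called lower and 0 higher, with a median log2 fold change of -0.46, where 16.7% of all tested genes were lower and 15.2% higher. GACAT3, 110 kb from MYCN, had 176 and 136 counts in shScb and 74 and 64 in shTTC8 (log2 fold change -0.79, SE 0.26, edgeR adjusted p = 0.0288). ENSG00000236989, 145 kb away, had 105 and 148 counts in shScb and 30 and 41 in shTTC8 (-1.44, SE 0.29, adjusted p = 0.00157 by edgeR). ENSG00000226041, 262 kb away, had 404 and 518 counts in shScb and 254 and 273 in shTTC8 (-0.42, SE 0.15, edgeR adjusted p = 0.0438). In each of these genes both knockdown libraries lay below both controls. The groups did not overlap, in either direction, in 65.5% of all tested genes. ENSG00000228876, 283 kb away, had 315 and 391 counts in shScb and 97 and 101 in shTTC8 (-1.44, SE 0.18, edgeR adjusted p = 3.15e-05).

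Relative to MYCN, ENSG00000236989 and ENSG00000228876 fell further (log2 differences -0.82 and -0.83, limma adjusted p = 0.0201 and 8.46e-04). They were the only genes of the 5 Mb window called lower relative to MYCN. The other 3 tested genes of the interval, ENSG00000271315, ENSG00000231266 and ENSG00000232444, had log2 fold changes of 0.51, -0.17 and -0.46 and were not called. The GACAT3 call did not hold without shScb replicate 1 (-0.54, edgeR adjusted p = 0.230) and without shTTC8 replicate 2 (-0.65, adjusted p = 0.158). That of ENSG00000226041 did not hold without shScb replicate 2 (-0.28, edgeR adjusted p = 0.290), without shTTC8 replicate 1 (-0.41, adjusted p = 0.151) and without shTTC8 replicate 2 (-0.42, adjusted p = 0.137). GACAT3 and ENSG00000236989 share 195 exonic bases on opposite strands, and ENSG00000228876 and ENSG00000231266 share 89. Counts within each pair are therefore not independent.

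**Figure D3:**
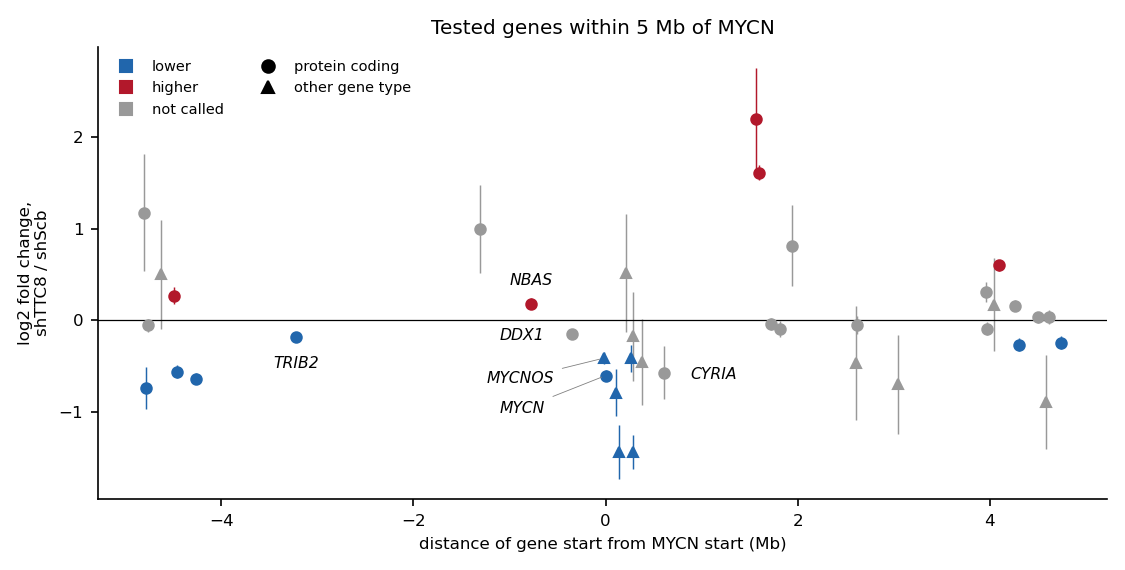
Log2 fold change of the 39 tested genes within 5 Mb of MYCN against the distance of the gene start from the MYCN start, with bars of 1 SE and the 6 members named. Calls in both directions lie on either side of MYCN, and the 2 lowest points, at -1.44, lie just to its right.

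The 5 genes whose profile over the 4 libraries was most like that of MYCN lay outside the 5 Mb window. That window held only 39 of the 19610 tested genes, so this placing says little of the neighbourhood. Likeness was the root mean square difference of log2 CPM profiles centred on the shScb mean, over 4 libraries and among 11459 genes with a symbol and a mean of at least 5 CPM. The 5 nearest were INSIG1 (0.0135), RND3 (0.0164), DGLUCY (0.0172), SERP1 (0.0188) and OPN3 (0.0216). INSIG1, a brake on cholesterol synthesis, had levels of 87.6 and 88.0 CPM in shScb and 57.0 and 57.9 CPM in shTTC8. SERP1 and OPN3 share exonic bases with EIF2A and CHML, which had 119% and 171% of their counts, and DGLUCY with RPS6KA5, which had 37.0%, so these levels are uncertain. MYCNOS was at a difference of 0.146 (rank 900), TRIB2 at 0.301 (rank 2978), DDX1 at 0.323 (rank 3362) and NBAS at 0.558 (rank 8248). Because MYCNOS shares exonic bases with MYCN, its rank may rest in part on MYCN reads, which was not tested. CYRIA, at 0.175, was below the level required for a rank.

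Genes tied to MYCN by function were then counted in the same fit, from lists that were chosen with earlier results of these data known. Each count is to be read against 16.7% lower and 15.2% higher over all tested genes. Among 15 upstream regulators, transcription factors and RNA-binding proteins that act on MYCN in neuroblastoma, 8 were lower (53.3%) and 2 higher (13.3%), with a median log2 fold change of -0.36. PHOX2A, a core factor of the noradrenergic state that shares exonic bases with INPPL1, fell from 775 ± 20.2 to 543 ± 20.7 CPM (-0.51, SE 0.06, adjusted p = 1.59e-05 by edgeR). HAND2, of the same core circuit, was at 948 ± 58.3 and 988 ± 42.9 CPM and was not called. E2F1, also on this list, rose from 97.2 ± 5.09 to 112 ± 0.251 CPM (0.20, edgeR adjusted p = 0.0243). The ranges of summed CPM for this list were 3235 to 3368 in shScb and 2772 to 2873 in shTTC8.

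Among 11 genes that control MYCN protein, 3 were lower (27.3%) and 1 higher (9.09%), against 16.7% and 15.2% over all tested genes, with a median of -0.05. CDK1, which primes MYCN for phosphorylation, fell from 144 ± 7.73 to 88.0 ± 2.45 CPM (-0.71, edgeR adjusted p = 1.06e-06). SKP2, a ubiquitin ligase subunit, fell by 0.30 on the log2 scale (edgeR adjusted p = 0.00162). AURKA, which shields MYCN from degradation, was at 48.1 ± 2.48 and 46.5 ± 0.0117 CPM and was not called (-0.05, edgeR adjusted p = 0.678). Among 13 chromatin partners 1 was lower (7.69%) and 2 higher (15.4%, near the share over all genes), with a median of 0.06. SP1, a factor known to bind GC boxes, fell from 232 ± 11.6 to 139 ± 4.29 CPM (-0.74, edgeR adjusted p = 5.61e-07). Any part of SP1 or E2F1 in the MYCN change was not tested. KAT2A, an acetyltransferase, rose by 0.45 on the log2 scale (edgeR adjusted p = 6.47e-05). PRMT5, an arginine methyltransferase, rose by 0.24 (edgeR adjusted p = 0.00525), no longer called without shTTC8 replicate 1 (0.23, adjusted p = 0.0790) and without shTTC8 replicate 2 (0.25, adjusted p = 0.0511). MAX, the obligate partner, was at 71.6 ± 1.25 and 75.5 ± 3.62 CPM and was not called.

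Among 29 genes that MYC and MYCN induce, 6 were lower (20.7%) and 7 higher (24.1%), not far from the 16.7% and 15.2% over all tested genes, with a median of -0.08. ODC1, which starts polyamine synthesis, rose from 290 ± 9.57 to 396 ± 16.5 CPM (0.45, edgeR adjusted p = 5.68e-05). BMI1, a Polycomb subunit, rose by 0.73 on the log2 scale (edgeR adjusted p = 2.50e-06). GNL3, a nucleolar GTPase that shares bases with GLT8D1, fell by 0.44 (edgeR adjusted p = 1.05e-04). Among 10 genes that MYCN represses, 3 were lower and 5 higher, with a median of 0.19, beside the same shares over all tested genes. NGFR, a neurotrophin receptor, fell from 32.0 ± 1.84 to 8.83 ± 0.362 CPM (-1.86, edgeR adjusted p = 8.63e-09). TGFBR2, a TGF-beta receptor, fell by 2.12 (edgeR adjusted p = 1.18e-05), and TGM2, a transglutaminase whose exons overlap RPRD1B, a gene with 580% of its counts, fell by 1.42 (adjusted p = 2.82e-05 by edgeR).

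The partners of the neighbours' proteins were counted in the same way, beside 16.7% lower and 15.2% higher over all tested genes. Of the other 6 subunits or partners of the DDX1 tRNA ligase complex, 2 were higher and none lower, with a median of 0.06. FAM98A rose by 0.27 on the log2 scale (edgeR adjusted p = 0.0139) and ZBTB8OS, which shares bases with ZBTB8A, by 0.35 (edgeR adjusted p = 0.0234). RTCB, the ligase itself, was at 135 ± 1.24 and 148 ± 3.49 CPM and was not called. The FAM98A call did not hold without shTTC8 replicate 1 (0.30, edgeR adjusted p = 0.0596) and without shTTC8 replicate 2 (0.24, adjusted p = 0.141). That of ZBTB8OS did not hold without shScb replicate 2 (0.26, edgeR adjusted p = 0.117) and without shTTC8 replicate 1 (0.29, adjusted p = 0.188). Of 14 partners of NBAS in vesicle tethering and nonsense-mediated decay, 2 were higher (14.3%, near the share over all genes) and none lower, with a median of -0.05. SMG5, a decay factor, rose from 117 ± 3.21 to 135 ± 3.95 CPM (0.21, edgeR adjusted p = 0.0150). Its call did not hold when shTTC8 replicate 1 (0.18, edgeR adjusted p = 0.203) or shTTC8 replicate 2 (0.24, adjusted p = 0.0644) was left out.

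Of 11 genes of the actin machinery that CYRIA acts on, 4 were lower (36.4%) and 2 higher (18.2%), against 16.7% and 15.2% over all tested genes, with a median of -0.06. ABI2, a WAVE complex subunit, fell by 0.56 on the log2 scale (edgeR adjusted p = 1.48e-05), and RAC1, the GTPase, by 0.35 (edgeR adjusted p = 3.16e-04). CYRIB, the paralogue of CYRIA, rose from 86.6 ± 2.47 to 106 ± 4.12 CPM (0.29, edgeR adjusted p = 0.00254), no longer called without shTTC8 replicate 2 (0.25, adjusted p = 0.0580). Of 8 partners of TRIB2, 3 were lower (37.5%, beside the same 16.7%) and none higher, with a median of -0.05. CEBPB, a C/EBP factor, fell from 87.6 ± 4.57 to 45.1 ± 4.37 CPM (-0.96, edgeR adjusted p = 4.43e-07). FOXO3 fell by 0.32 (edgeR adjusted p = 8.66e-04). TRIB3 fell by 0.34 (edgeR adjusted p = 0.0192), no longer called without shScb replicate 2 (-0.28, adjusted p = 0.0780), without shTTC8 replicate 1 (-0.38, adjusted p = 0.0550) and without shTTC8 replicate 2 (-0.29, adjusted p = 0.128). COP1 was at 39.1 ± 0.969 and 41.3 ± 0.663 CPM and was not called.

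**Figure D4:**
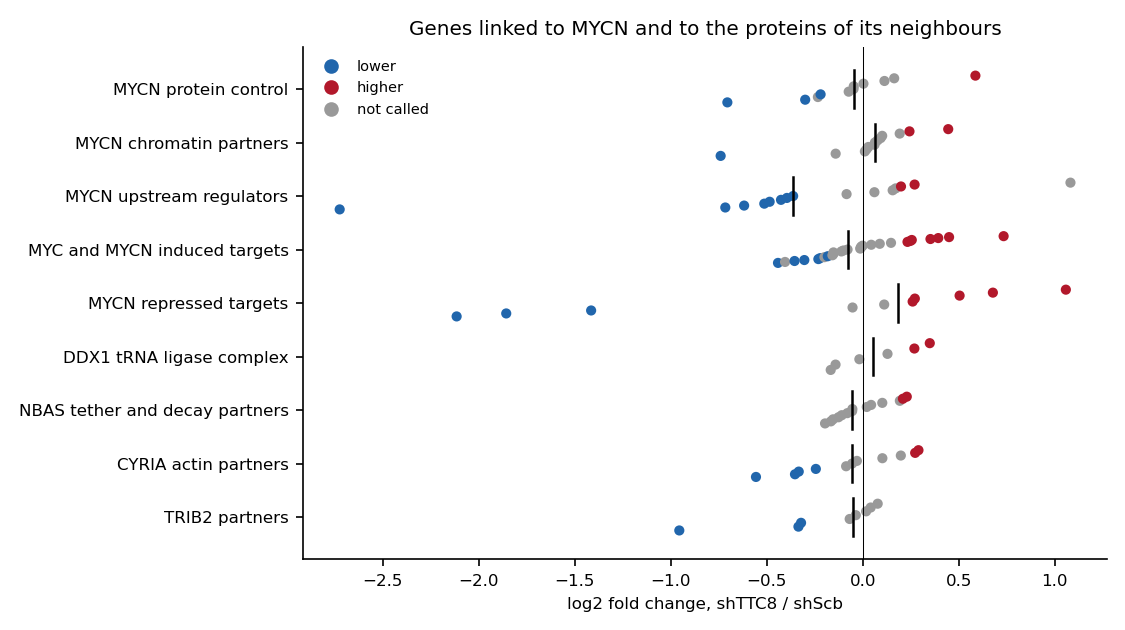
Log2 fold change (shTTC8 over shScb) of each tested gene in the 9 lists, with colours for the call and a black bar at the median of the list. The upstream regulators have the lowest median, -0.36, and the other medians lie between -0.08 and 0.19.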

How the data were processed

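RNA from 4 libraries of SK-N-BE(2) cells was measured, 2 per group, and groups were taken from the sample titles. Per the labels' protocols, TRIzol-extracted RNA went into Illumina TruSeq libraries, a kit without strand marking. HISAT2 2.2.0 and the build hg38 are named, per the submitters' processing notes; which counter and annotation release were used is not stated in the sources used here. The authors deposited unnormalized whole counts for each Ensembl gene. Gene positions and exons were those of GENCODE 29 (GRCh38, the assembly that hg38 names), promoter sequences those of RefSeq (GRCh38.p14), and symbols came from a gene name table.

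Testing used edgeR 4.0.16 in R 4.3.3: filterByExpr with default settings, TMM scaling, and the robust quasi-likelihood F test, two-sided, with Benjamini-Hochberg adjustment over 19610 genes at 0.05. The biological coefficient of variation was 10.5%. CPM used TMM-scaled library sizes, and SDs are over 2 libraries. Ratios to MYCN were tested with limma 3.58.1 (trend, robust) on log2 ratios of counts with 0.5 added, over all tested genes; CPM per kilobase divides by the union of annotated exons. Libraries of 38284663 to 55331449 counts leave counting error small for all members but CYRIA. Intervals cover 95%.

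Named were all members, up to 3 called genes per list and up to 5 in the 5 Mb window by smallest p, the 5 most like MYCN, and TTC8; others were chosen after their values were seen, and some genes that the rule picks are not reported here. The members, lists and tests were chosen with earlier results of these data known. Both tests were run on simulated data, with a pass mark set for edgeR alone. MYCN was left unchanged in that simulation, unlike in these data, so it does not check the ratios under a shift of MYCN. Alternatives were other scalings, filters and tools (DESeq2 1.42.0, limma-voom), a wider window, a replicate block and leaving out each library.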

Additional observations from a re-analysis of the deposited data

How the results depend on the processing

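MYCN and MYCNOS stayed lower and past the threshold under all 12 alternatives of scaling, filter, tool, block and left-out library (log2 fold changes -0.63 to -0.57 and -0.51 to -0.32). The changes of DDX1, NBAS and TRIB2 relative to MYCN stayed past it under all 9 alternatives run for them. DDX1 itself passed with a filter of at least 1 CPM in 2 libraries (-0.15, adjusted p = 0.0431), with DESeq2 (-0.15, adjusted p = 0.0292) and with limma-voom (-0.15, adjusted p = 0.0473), and ranged from -0.17 to -0.14 when 1 library was left out. NBAS missed it with no low-count filter (0.15, adjusted p = 0.130) and TRIB2 with scaling by library size alone (-0.14, adjusted p = 0.0790). Leaving out 1 library gave 0.14 to 0.22 for NBAS and -0.20 to -0.17 for TRIB2. With no low-count filter the MYCNOS ratio to MYCN was 0.19 (adjusted p = 0.0571), and it ran from 0.12 to 0.27 with 1 library left out; that of CYRIA ran from -0.19 to 0.29, with -0.19 and -0.01 where it changed sign. The cause of these changes was not tested, except that leaving out a library leaves 1 in its group, assumed to vary like the others.

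In the 5 Mb window 3 genes were higher with no low-count filter, and the 10 Mb window held 17 higher and 20 lower; with 1 library left out the 5 Mb window held 2 to 6 higher and 7 to 11 lower. Genes called higher over the whole table ran from 1880 (without shTTC8 replicate 1) to 3395 with 1 library left out. Replicate numbers do not pair the samples by any label, and deviations of same-numbered libraries correlated at 0.03; under the replicate block NBAS (0.18, adjusted p = 0.0613) and TRIB2 (-0.18, adjusted p = 0.0535) lost their calls, and 3092 genes were higher. The scaling alternatives moved the median of all genes by at most 0.04 on the log2 scale. Over 42 other genes followed through the alternatives, 471 values kept their direction and side of the threshold, 29 lost the call and 0 reversed. Depth limits CYRIA, with 45 to 107 counts in each library.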
